A study of Mus musculus with 12 samples.

Results

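Genes of the actin cytoskeleton and targets of serum response factor (SRF) were followed in mouse mesenchymal breast cancer cells of the line MTΔECad, whose name denotes a deletion of E-cadherin, while the cells turned into adipocytes. The list holds 39 genes of 17090 in the count table. A gene was kept when it had 10 or more counts in 2 or more libraries, which held for 38 of the 39. The gene left out was Cnn1, the smooth muscle calponin, which had 0 to 4 counts in each library. Within the list, genes were kept by this minimum only, but the list itself was chosen with earlier results of these data known.

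The study sampled 1 cell line at 6 time points, with 2 libraries per time point, 12 in all. Cells of the 0 h group had been seeded at 20000 cells per cm2 and kept overnight. Recombinant human bone morphogenetic protein 2 (BMP2, 200 ng/ml) was then given for 3 days, BMP2 together with the PPARγ agonist rosiglitazone (2 µM) for the next 4 days, and rosiglitazone alone (2 µM) for the last 3 days. The 6 h and day 3 groups thus fall in the BMP2 period, the day 5 and day 7 groups in the combined period, and the day 10 group at the end of rosiglitazone alone. RNA came from 2 independent experiments, and the labels name no untreated cells of matched age, so treatment, time and time in culture cannot be told apart.

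Actin exists as monomers and as filaments, and contractile bundles of filaments called stress fibres end at focal adhesions, where the cell holds on to its substrate. SRF is a transcription factor that binds a short DNA element, the CArG box. Its coactivators of the MRTF family are held inactive by actin monomers, so many genes of the actin cytoskeleton respond to the state of actin itself. In preadipocytes, loss of stress fibres is a known step of adipocyte differentiation, and MRTF and SRF activity is known to oppose it.

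Library totals ran between 12820802 and 17570366 counts. Levels are given in CPM, the usual depth-scaled count unit, on library sizes adjusted by the trimmed mean of M values. All 7 adipocyte markers rose at day 10, with a summed level of 29609 to 31088 CPM at day 10 and 44.9 to 49.6 CPM at 0 h. All 6 proliferation markers fell by day 3, with a summed level of 73.5 to 95.5 CPM at day 3, against 3220.1 to 3277 CPM at 0 h. The summed level of 6 mesenchymal markers was 3068 to 3494 CPM at day 10 and 11099 to 11487 CPM at 0 h, with 4 of the 6 lower and 2 higher. The leukocyte markers summed to at most 15.2 CPM at any time, with Ptprc at 0 at both day 10 and 0 h. Cd68 was called higher at day 10 than at 0 h, and Csf1r and Cd14 were called lower. The 6 epithelial markers summed to 838 to 849 CPM at 0 h, 103 to 150 CPM at day 3 and 906 to 964 CPM at day 10. At day 10 Krt14 and Epcam were called higher than at 0 h, Krt8 and Krt18 were called lower, and Krt5 was too scarce to test. Cdh1, the gene of E-cadherin, was not called and averaged 0.402 ± 0.189 CPM at day 10 and 0.560 ± 0.169 CPM at 0 h (SD, n = 2 each). The 7 endothelial and pericyte markers, nearly all of it Pdgfrb, summed to 259 to 308 CPM at 0 h, 505.5 to 552 CPM at day 3 and 135 to 151 CPM at day 10. Among them Kdr was at 0 at day 10 and 0 h, and Pecam1 was called higher, with means of 3.69 CPM at day 10 and 0.0309 CPM at 0 h. Pdgfrb was called lower at day 10, and so was the scarce Cdh5, with means of 0 CPM at day 10 and 0.651 CPM at 0 h. The proliferation and epithelial sums were lower at day 3, when the adipocyte sum was already higher (357 to 423 CPM). The mesenchymal sum stood at 11323 to 15672 CPM at day 3 and was lower from day 5 on. These sums rest on a few abundant genes. At day 3 against 0 h, 3 of the 7 adipocyte markers were called higher and 0 lower. Of the 6 mesenchymal markers, 2 were called higher and 3 lower there, against 33.1% and 35.0% of all genes tested. The part of these lists in the results below was not tested. In such bulk RNA, fewer cells of a type and less RNA per cell cannot be told apart.

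The actin cytoskeleton genes showed no called change at 6 h and lost most of their expression between 6 h and day 7. The 38 genes together took 4.68% and 4.57% of all counts in the 0 h libraries, 4.62% and 4.72% at 6 h, 2.64% and 2.28% at day 3, 1.17% and 1.24% at day 5, 0.612% and 0.700% at day 7, and 0.519% and 0.518% at day 10. From day 3 on, both libraries of each time lay below both libraries of the time before, by the smallest margin at day 10. A gene is called changed when the adjusted p of edgeR's quasi-likelihood test, with Benjamini-Hochberg adjustment over all 12740 genes tested, is below 0.05. The joint test across all time points called 37 of the 38, against 94.7% of all genes tested. The exception was Myl6, the essential light chain of non-muscle and smooth muscle myosin (adjusted p = 0.0854).

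At day 10 against 0 h, 34 of the 38 genes were lower, all of them by at least 2-fold, and 3 were higher. Of all genes tested, 39.9% were called lower, 23.5% lower by at least 2-fold, and 42.8% higher. The median log2 fold change was -2.41 over the 38 genes and 0.06 over all genes tested. The largest falls were those of Myl9, Fhl2, Acta2, Tagln2 and Cnn2. The genes that rose were Mylk, Tpm2 and Myh10. By role, all 4 actins, all 5 calponin, transgelin and caldesmon genes tested, all 6 crosslinkers and filament binders, all 4 focal adhesion genes, all 5 LIM domain genes, all 3 monomer binding genes and both transcription factors were lower. The non-muscle and smooth muscle myosin genes were split, with 2 of 5 lower and 2 of 5 higher, and among the tropomyosins 3 of 4 were lower and 1 was higher.

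**Figure D1:**
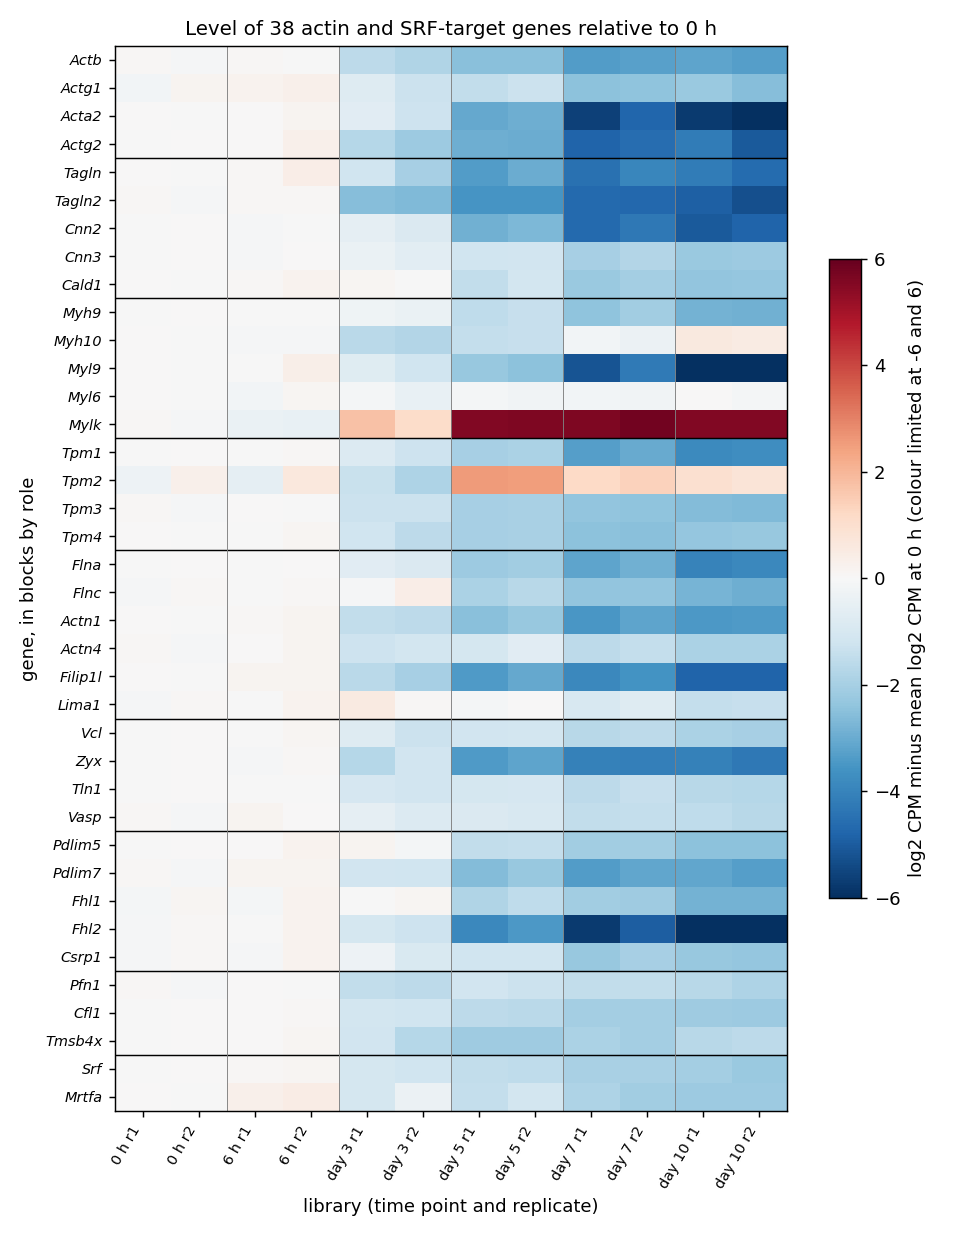
Each cell shows the log2 CPM of 1 gene (vertical axis, in blocks by role) in 1 library (horizontal axis, r1 and r2 for replicates 1 and 2), minus the mean log2 CPM of that gene at 0 h; blue is lower and red is higher, and colours stop at -6 and 6. The columns at 6 h are close to white, most genes are blue from day 3 on, and Mylk, Tpm2 and Myh10 are red at day 10.

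**Figure D2:**
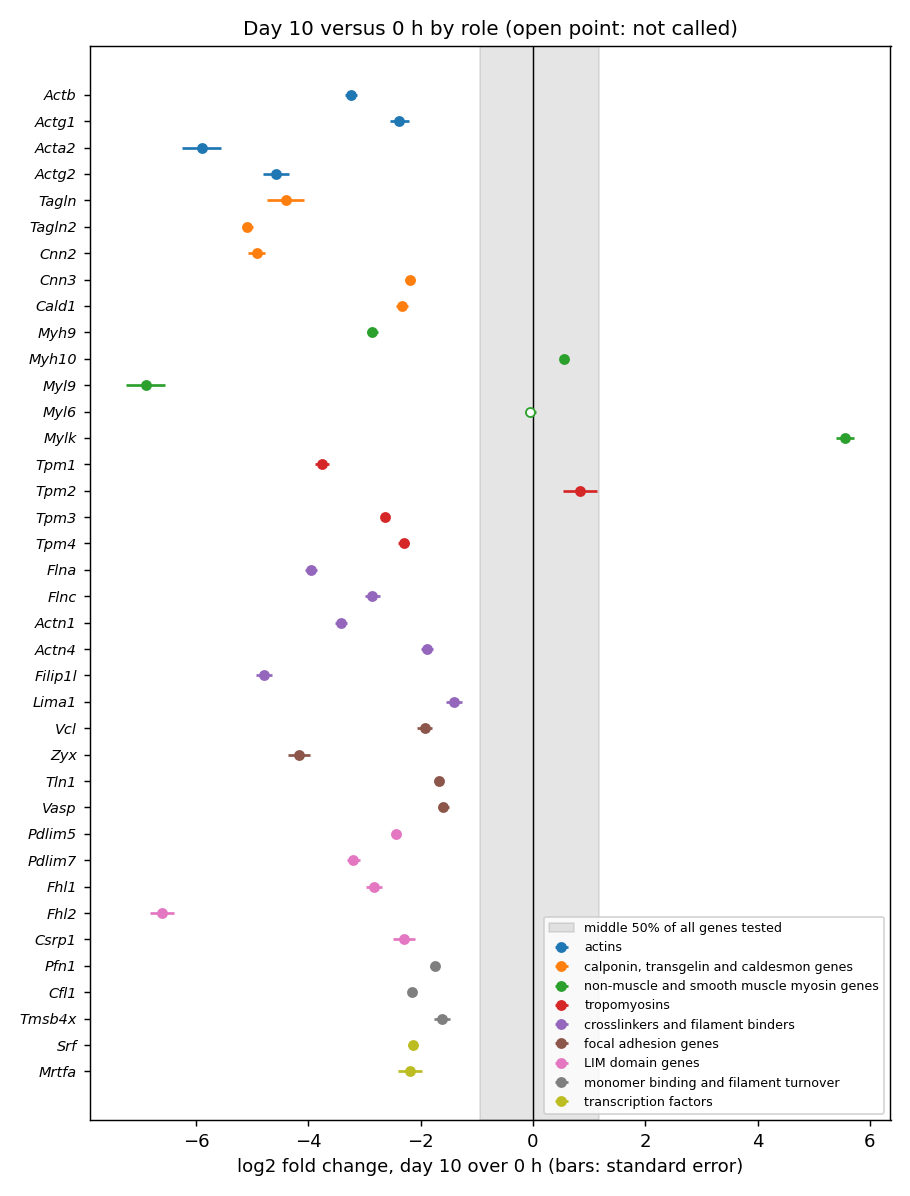
Points give the log2 fold change of each of the 38 genes, day 10 over 0 h (horizontal axis), with the standard error as bars and colours for the role; the grey band spans the middle 50% of all genes tested. The 34 genes called lower lie left of the band, and Myl6, drawn open because it was not called, lies at -0.05.

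The fall did not run at the same pace in each period. At 6 h against 0 h none of the 38 genes was called by edgeR's quasi-likelihood test or by DESeq2, and none had an unadjusted p below 0.05, against 0.746% of all genes called in either direction. The 6 h mean lay above the 0 h mean in 32 of the 38, with a median log2 fold change of 0.07 over the 38 genes and 0.00 over all genes tested. The share of all genes with a higher 6 h mean was not computed. Between the 6 h libraries, replicate 1 lay above replicate 2 in 8 of the 38, and the share of all genes with that order was not computed either. The largest positive difference was that of Mrtfa, at 0.38 ± 0.17 (log2 fold change ± SE), with 46.7 and 51.6 CPM at 6 h and 39 and 36.8 CPM at 0 h. It did not pass the test (adjusted p = 0.855), although a fit to the 4 libraries of these times alone called it (adjusted p = 0.0271).

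By day 3, the end of BMP2 alone, 32 genes were lower than at 0 h, 21 of them by at least 2-fold, and 1, Mylk, was higher. The shares over all genes tested were 35.0% lower, 13.3% lower by at least 2-fold, and 33.1% higher. The median log2 fold change was -1.04 over the 38 genes and 0.00 over all genes. The call of Myl6 as lower (-0.27 ± 0.10, adjusted p = 0.0279) was lost with upper-quartile factors or library totals (adjusted p = 0.158 and 0.136). It was also lost with the 4 compared libraries alone (adjusted p = 0.0731). That of Myh9 (-0.32 ± 0.098, adjusted p = 0.00734) was lost with upper-quartile factors or library totals (adjusted p = 0.0544 and 0.0586). The count of higher genes was 2 without 6 h replicate 1, 6 h replicate 2 or day 3 replicate 1, and 3 without day 3 replicate 2. From day 3 to day 5, when rosiglitazone was added, 30 genes were lower and 5 were higher at day 5, against 31.0% and 34.0% of all genes. With library totals in place of scaling factors, 2 were higher. The median was -0.79 over the 38 genes and 0.01 over all genes, and 15 genes were lower by at least 2-fold, against 10.1% of all genes. Between day 5 and day 7, 33 were lower and 1 was higher at day 7, against 18.8% and 19.0% of all genes, with medians of -0.75 and -0.01, and 9 were lower by at least 2-fold, against 3.8%. In the last interval, with rosiglitazone alone, 16 were lower and 1 was higher at day 10 than at day 7, against 13.2% and 15.1% of all genes, with medians of -0.24 and 0.00, and 3 were lower by at least 2-fold, against 1.59%. The count of lower genes in this interval rested on single libraries: it was 7 without day 7 replicate 2, 8 without day 10 replicate 1 and 8 without day 10 replicate 2. The count of higher genes was 3 without day 3 replicate 1 and 3 without day 3 replicate 2, which enter the fit through the shared spread.

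The largest single fall came between 6 h and day 3 in 22 genes, between day 3 and day 5 in 9 and between day 5 and day 7 in 5. A set of 10 genes was called lower in each of the 4 intervals from 0 h to day 10: Tagln2, Cnn2, Cnn3, Myh9, Myl9, Tpm1, Tpm3, Flna, Filip1l and Fhl2. The set rested on single libraries: 5 of these genes were left without day 7 replicate 2, 5 without day 10 replicate 1 and 6 without day 10 replicate 2, and Flna and Tpm1 were the 2 that stayed in it whichever library was left out. Replicates differed more at day 3 than at other times. The median difference between the 2 libraries was 0.317 on the log2 scale over the 38 genes at day 3, and between 0.046 and 0.189 at the other times. At day 3, 33 of the 38 genes were higher in replicate 1 than in replicate 2. For the step of largest fall, the set of 10 and the replicate order, the shares over all genes tested were not computed.

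**Figure D3:**
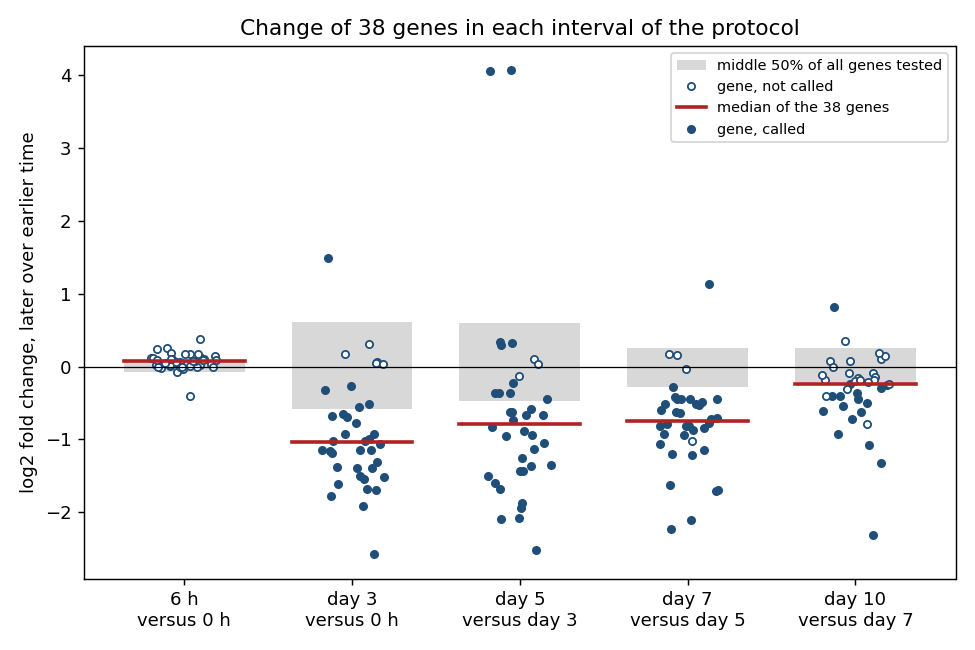
Each point is 1 of the 38 genes, with its log2 fold change (vertical axis, later over earlier time) in each interval of the protocol (horizontal axis); filled points were called, open points were not, red lines are medians and grey boxes the middle 50% of all genes tested. The median lies at 0.07 at 6 h and at -1.04, -0.79, -0.75 and -0.24 in the intervals after it.

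The transcription factors themselves declined. Srf had 133 and 138 CPM at 0 h, 141 and 149 CPM at 6 h, and 64.7 and 58.5 CPM at day 3. The level was 48.5 and 47.3 CPM at day 5, 35.0 and 34.8 CPM at day 7, and 33.1 and 28.5 CPM at day 10. From day 3 on, no library of a later time overlapped those of the time before. Its log2 fold change was -1.14 ± 0.079 at day 3 over 0 h (adjusted p = 1.69e-09) and -2.14 ± 0.086 at day 10 over 0 h (adjusted p = 3.42e-13). Mrtfa, the actin-sensing coactivator, had 8.33 and 8.27 CPM at day 10 and 39 and 36.8 CPM at 0 h, a log2 fold change of -2.19 ± 0.21 (adjusted p = 6.85e-07). Its day 3 libraries stood at 18.2 and 30.1 CPM, both below the 0 h libraries but far apart, and in the opposite order to most of the 38 genes.

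Among the 7 other SRF partners tested, day 10 libraries showed 1 gene lower and 5 genes higher against 0 h, with a median log2 fold change of 0.30. Of all genes tested, 39.9% were called lower and 42.8% higher, with a median of 0.06. Mrtfb, the sister coactivator, had 51.4 and 50.1 CPM at day 10 and 36.4 and 32.3 CPM at 0 h (log2 fold change 0.56 ± 0.11, adjusted p = 0.000134). Scai, a known inhibitor of MRTF and SRF activity, averaged 55.2 ± 9.07 CPM at day 10 and 29.9 ± 0.546 CPM at 0 h (SD, n = 2 each; log2 fold change 0.89 ± 0.12, adjusted p = 2.97e-06). The partner that fell was Elk3, an ETS factor that joins SRF on DNA, with 34.9 and 31.7 CPM at day 10 and 121 and 119 CPM at 0 h (log2 fold change -1.85 ± 0.083, adjusted p = 1.45e-12). Myocd, the muscle coactivator of SRF, was named after its values were seen: it averaged 0.0448 ± 0.0634 CPM at day 10 (SD, n = 2) and was at 0 in both 0 h libraries.

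The element that SRF binds was looked for in promoter windows reaching from 250 bases before to 50 bases after the annotated start (RefSeq, GRCm38.p6). Windows were given for 36 of the 39 genes, and Actb, Actg2 and Tagln had none in the table. A CArG box, a run of A and T between a CC and a GG that reads as the same pattern on both strands, was in the windows of 10 of the 36 genes (27.78%) and of 488 of all 27025 genes with a window (1.81%). With up to 1 mismatch the shares were 52.78% and 23.75%. The list was made to hold SRF targets, so these shares are a description and not a test of the list. The genes with an exact box were Actg1, Cnn2, Fhl1, Fhl2, Filip1l, Lima1, Myl6, Myl9, Srf and Vcl. The stretches below show the upstream bases around the boxes, with each box in capitals, for Srf itself, which holds a pair, for Fhl2, Myl9 and Cnn2 as genes with deep falls, for the focal adhesion gene Vcl, and for Myl6, whose level did not pass the test. Each is written on the strand of its gene.
Srf: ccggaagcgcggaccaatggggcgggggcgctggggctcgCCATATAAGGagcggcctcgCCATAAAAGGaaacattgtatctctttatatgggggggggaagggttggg
Fhl2, first window: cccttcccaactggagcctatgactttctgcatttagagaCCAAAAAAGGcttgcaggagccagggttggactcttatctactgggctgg
Fhl2, second window: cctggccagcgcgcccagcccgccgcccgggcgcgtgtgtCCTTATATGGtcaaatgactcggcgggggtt
Myl9: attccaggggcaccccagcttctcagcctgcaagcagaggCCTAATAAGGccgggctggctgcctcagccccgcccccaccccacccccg
Cnn2: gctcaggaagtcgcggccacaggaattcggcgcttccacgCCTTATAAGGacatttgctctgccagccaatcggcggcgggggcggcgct
Vcl: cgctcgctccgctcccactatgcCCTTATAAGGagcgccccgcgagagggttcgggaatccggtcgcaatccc
Myl6: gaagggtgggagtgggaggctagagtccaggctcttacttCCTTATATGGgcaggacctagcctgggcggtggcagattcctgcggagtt
The Srf stretch lies at chr17:46556175-46556284 on the minus strand, and its boxes begin 82 and 62 bases before the start. The Fhl2 stretches lie on the minus strand at chr1:43196808-43196897 and chr1:43163962-43164032, with boxes beginning 96 and 31 bases before their starts. The Myl9 stretch is at chr2:156775263-156775352 on the plus strand, the Cnn2 stretch at chr10:79988504-79988593 on the plus strand, the Vcl stretch at chr14:20929148-20929220 on the plus strand and the Myl6 stretch at chr10:128493010-128493099 on the minus strand, with boxes beginning 161, 56, 227 and 50 bases before the start.

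Acta2 held no exact box in its window, but 2 stretches with a single mismatch, given in capitals in the sequence below.
Acta2: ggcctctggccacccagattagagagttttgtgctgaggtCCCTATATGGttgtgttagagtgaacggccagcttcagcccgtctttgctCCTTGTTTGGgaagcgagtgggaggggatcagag
This stretch lies at chr19:34255374-34255497 on the minus strand, and its capitals begin 84 and 34 bases before the start. The 10 genes with an exact box had a median log2 fold change of -2.60 at day 10 over 0 h, with a range from -6.90 (Myl9) to -0.05 (Myl6). The 25 tested genes with a window and no exact box had a median of -2.30, with a range from -5.90 (Acta2) to 5.56 (Mylk). The ranges overlap over most of their length. The 3 genes that rose, Mylk, Myh10 and Tpm2, held no box in their windows, exact or with a single mismatch. The same held for genes that fell, among them Tagln2, Zyx, Actn1, Pdlim7 and Myh9. Of the 36 genes with windows, 19 held a box with up to 1 mismatch. A match is a description of the letters, and no binding was measured here.

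All 4 actins fell. The cytoplasmic Actb, which carried most of the actin counts, had its largest fall by day 3. The smooth muscle Acta2 had its largest falls between day 3 and day 7. Actb had 15089 and 13754 CPM at 0 h, 14933 and 14283 CPM at 6 h, and 4853 and 4176 CPM at day 3. The level was 2557 and 2521 CPM at day 5, 1392 and 1502 CPM at day 7, and 1582 and 1475 CPM at day 10. From day 3 to day 7 both libraries of each time lay below those of the time before, and the day 10 and day 7 libraries overlapped. The log2 fold change was -1.68 ± 0.094 at day 3 over 0 h (adjusted p = 1.01e-10), -3.24 ± 0.10 at day 10 over 0 h (adjusted p = 1.11e-14), and 0.08 ± 0.092 at day 10 over day 7, which did not pass the test (adjusted p = 0.565). As a share of all counts in the library, Actb took 0.130% and 0.124% at day 10 and 1.60% and 1.46% at 0 h.

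Acta2, the actin of smooth muscle and of contractile fibroblasts, had 2047 and 2004 CPM at 0 h, 2033 and 2302 CPM at 6 h, and 1281 and 866 CPM at day 3. The level was 242 and 262 CPM at day 5, 41.9 and 74.6 CPM at day 7, and 38.3 and 29.6 CPM at day 10. Both day 3 libraries lay below the 0 h libraries, but the steep part of the fall came after day 3. The log2 fold changes were -0.92 ± 0.28 at day 3 over 0 h (adjusted p = 0.0207), -2.09 ± 0.29 at day 5 over day 3 (adjusted p = 0.000439), -2.11 ± 0.30 at day 7 over day 5 (adjusted p = 0.00125) and -5.90 ± 0.35 at day 10 over 0 h (adjusted p = 1.43e-06), a level 59.9-fold lower. The call at day 3 was lost without 0 h replicate 1, 0 h replicate 2 or day 3 replicate 2 (adjusted p = 0.0695, 0.061 and 0.122).

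Per kilobase of gene length, Acta2 made up 9.15% and 9.75% of the sum of the 4 actins at 0 h, 9.18% and 10.7% at 6 h, 16.4% and 13.3% at day 3, 6.56% and 7.15% at day 5, 2.18% and 3.55% at day 7, and 1.76% and 1.47% at day 10. The share was therefore highest at day 3, when Actb had fallen more than Acta2, and lowest at day 10. All these shares take the Actg1 counts as given, and the level of Actg1 is uncertain for the reason given below. Actg2, the enteric smooth muscle actin, had 1.79 and 0.996 CPM at day 10 and 32.2 and 33.1 CPM at 0 h (log2 fold change -4.57 ± 0.23, adjusted p = 5.57e-12). Actg1, the other cytoplasmic actin, had 7.97 and 6.36 CPM at day 10 and 33.3 and 40.9 CPM at 0 h (log2 fold change -2.38 ± 0.17, adjusted p = 9.39e-10). Its level is uncertain, because 37.38% of the 50-base words of its transcripts, and 29.91% of the 100-base words, also occur in other annotated genes, and how the counting treated shared reads is not given here. The same share of 50-base words was 10.32% in Cnn3, 9.12% in Actb, 8.38% in Myl6 and 7.25% in Cfl1.

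**Figure D4:**
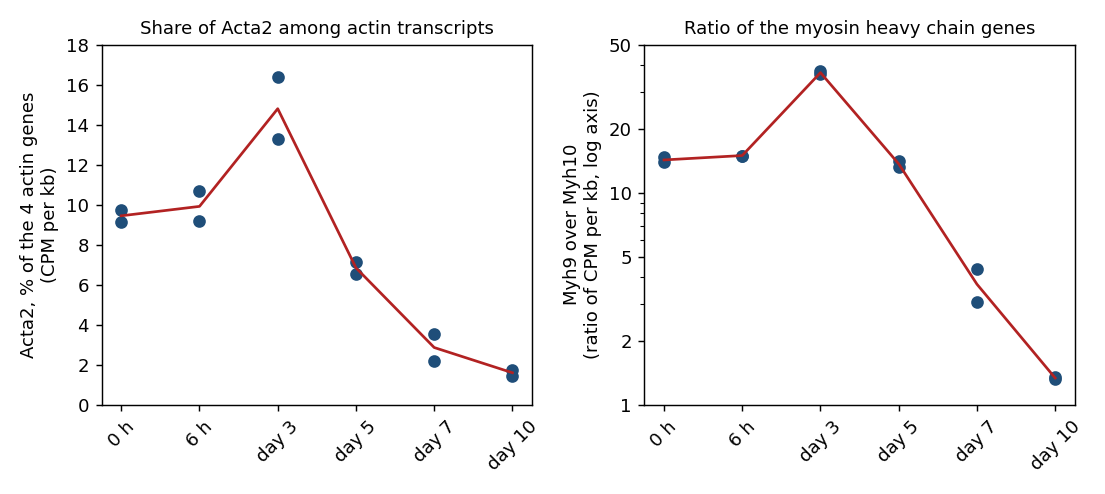
Left, Acta2 as a percentage of the 4 actin genes in CPM per kilobase; right, the ratio of Myh9 to Myh10 in CPM per kilobase on a log axis; points are libraries, lines join the means, and the horizontal axes give the time points. The Acta2 share was 16.4% and 13.3% at day 3 and the myosin ratio 37.5 and 36.2, both the highest of the time course, and both were lowest at day 10.

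The actin-binding proteins of the calponin, transgelin and caldesmon families all fell, on different schedules. Tagln2 had 442 and 412 CPM at 0 h, 444 and 443 CPM at 6 h, and 73.3 and 68.9 CPM at day 3. The level was 36.9 and 36.7 CPM at day 5, 16.8 and 16.3 CPM at day 7, and 14.2 and 11.0 CPM at day 10. Its log2 fold change at day 3 over 0 h, -2.58 ± 0.083 (adjusted p = 6.86e-14), was the largest fall of the 38 genes in that comparison, and no 2 successive times from 6 h on overlapped. Tagln, the smooth muscle transgelin also called SM22, had 8.51 and 6.51 CPM at day 10 and 158 and 157 CPM at 0 h (log2 fold change -4.40 ± 0.33, adjusted p = 4.91e-06).

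In Cnn2 the largest step came after day 3. It had 810 and 819 CPM at 0 h, 781 and 813 CPM at 6 h, and 559.6 and 441 CPM at day 3. The level was 111 and 125 CPM at day 5, 31.8 and 41.2 CPM at day 7, and 24.7 and 28.8 CPM at day 10. The log2 fold change was -0.70 ± 0.12 at day 3 over 0 h (adjusted p = 0.000173) and -2.08 ± 0.13 at day 5 over day 3 (adjusted p = 7.89e-09), the interval when rosiglitazone was first present. Cnn3 declined more evenly, with 84.4 and 86.9 CPM at day 10 and 388 and 395 CPM at 0 h (log2 fold change -2.19 ± 0.094, adjusted p = 8.32e-13). Cald1, which encodes caldesmon, had 766 and 701 CPM at day 3 against 704 and 701 CPM at 0 h, and the difference did not pass the test (log2 fold change 0.06 ± 0.10, adjusted p = 0.614). Its libraries then stood at 251 and 323 CPM at day 5, below both day 3 libraries (log2 fold change -1.35 ± 0.11, adjusted p = 2.19e-08).

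The myosin genes moved in both directions. Myl9, a regulatory light chain of smooth muscle and non-muscle myosin, had the deepest fall of the 38 genes. It had 56.0 and 54.3 CPM at 0 h, 53.7 and 70.1 CPM at 6 h, and 33.7 and 24.3 CPM at day 3. The level was 11.3 and 10.1 CPM at day 5, 1.52 and 2.96 CPM at day 7, and 0.269 and 0.613 CPM at day 10. The day 10 values rest on 3 and 8 counts, against 763 and 879 counts at 0 h, so the log2 fold change of -6.90 ± 0.35 (adjusted p = 1.34e-09) has a wide counting error at its lower end. Myl6, the essential light chain, had 117 and 109 CPM at day 10 and 117 and 116.5 CPM at 0 h. The groups overlapped and the log2 fold change was -0.05 ± 0.10 (adjusted p = 0.670), although with library totals in place of scaling factors it was -0.40 and passed.

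Mylk, the kinase that phosphorylates regulatory light chains, rose while Myl9, 1 of the genes for such chains, fell. Mylk had 2.79 and 2.47 CPM at 0 h, 2.02 and 1.95 CPM at 6 h, and 9.02 and 5.72 CPM at day 3. The level was 122 and 126 CPM at day 5, 128 and 147 CPM at day 7, and 122 and 125 CPM at day 10. The day 3 libraries lay above the earlier ones, and the level then jumped and stayed. Its log2 fold change was 1.49 ± 0.21 at day 3 over 0 h (adjusted p = 9.52e-06), 4.06 ± 0.13 at day 5 over day 3 (adjusted p = 3.18e-13), 0.16 ± 0.10 at day 7 over day 5, which did not pass (adjusted p = 0.257), and 5.56 ± 0.16 at day 10 over 0 h (adjusted p = 1.23e-14). At 0 h it had 38 and 40 counts per library, so the low end is well counted.

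The heavy chains of non-muscle myosin II moved in opposite directions and ended near the same level per kilobase. Myh9, the heavy chain of myosin IIA, had 3723 and 3853 CPM at 0 h, 3776 and 3764 CPM at 6 h, and 3185.5 and 2862 CPM at day 3. The level was 1304 and 1452 CPM at day 5, 718 and 893 CPM at day 7, and 531 and 509 CPM at day 10 (log2 fold change at day 10 over 0 h -2.86 ± 0.10, adjusted p = 1.01e-13). Myh10, the heavy chain of myosin IIB, had 279 and 275 CPM at 0 h, 263 and 264 CPM at 6 h, and 88.8 and 82.7 CPM at day 3. The level was 103 and 107 CPM at day 5, 246 and 215 CPM at day 7, and 418 and 396 CPM at day 10. It fell at day 3 (log2 fold change -1.69 ± 0.077, adjusted p = 6.79e-12) and rose in each later interval, ending above its start (0.55 ± 0.074 at day 10 over 0 h, adjusted p = 2.37e-06). Its smallest rise, 0.29 ± 0.077 at day 5 over day 3, passed with an adjusted p of 0.00303 but not with library totals in place of scaling factors, where it was 0.16 with an adjusted p of 0.0628. Per kilobase, Myh9 exceeded Myh10 by a ratio of 14.0 and 14.7 at 0 h, 15 and 14.9 at 6 h, 37.5 and 36.2 at day 3, 13.3 and 14.2 at day 5, 3.06 and 4.36 at day 7, and 1.33 and 1.35 at day 10.

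**Figure D5:**
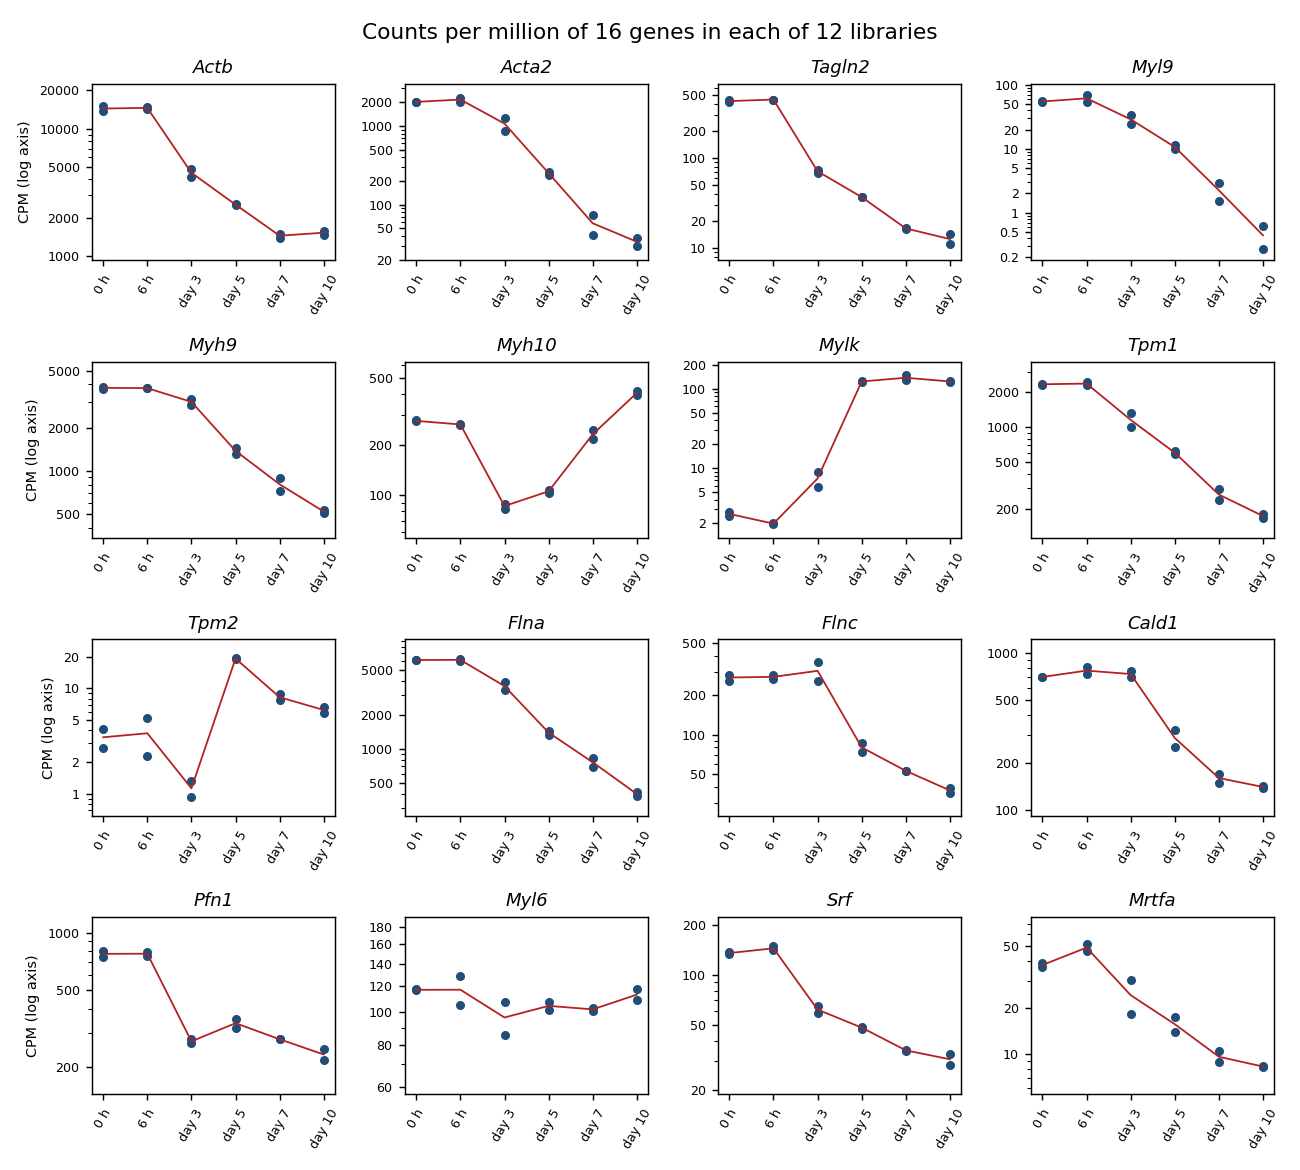
CPM of 16 of the 38 genes (vertical axes, log scale, a range of their own for each gene) at the 6 time points (horizontal axes); points are the 2 libraries of a time and lines join their means. Actb and Pfn1 drop between 6 h and day 3, Cald1 and Flnc between day 3 and day 5, Mylk and Tpm2 jump between day 3 and day 5, and Myh10 dips to 88.8 and 82.7 CPM at day 3.

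Tropomyosins, which coil along the filament and control access of other proteins, showed the same split. Tpm1 had 2321 and 2380.5 CPM at 0 h, 2305 and 2459 CPM at 6 h, and 1318 and 1005 CPM at day 3. The level was 586.5 and 626 CPM at day 5, 236.5 and 293 CPM at day 7, and 167 and 179 CPM at day 10. The decline went on to day 10 without overlap from 6 h on (log2 fold change at day 10 over 0 h -3.76 ± 0.13, adjusted p = 9.49e-13). Tpm4 stood at 288 and 299 CPM at day 10 and 1458 and 1426.5 CPM at 0 h (log2 fold change -2.30 ± 0.10, adjusted p = 2.13e-12), and Tpm3 at 44.9 and 43.4 CPM at day 10 and 289.8 and 259 CPM at 0 h (-2.64 ± 0.075, adjusted p = 4.15e-15). Of the 50-base words, 23.23% in Tpm3 and 11.65% in Tpm4 also occur in other annotated genes, so the levels of these genes carry that uncertainty. Per kilobase, Tpm1 made up 24.9% and 25.6% of the 4 tropomyosins at day 10 and 47.3% and 48.7% at 0 h, and Tpm4 67.5% and 67.5% at day 10 and 46.8% and 46.0% at 0 h.

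Tpm2, the tropomyosin of smooth and slow skeletal muscle, was scarce at the start and peaked at day 5. It had 2.72 and 4.14 CPM at 0 h, 2.28 and 5.21 CPM at 6 h, and 1.33 and 0.921 CPM at day 3. The level was 19.4 and 18.9 CPM at day 5, 7.68 and 8.77 CPM at day 7, and 6.63 and 5.82 CPM at day 10. The day 5 libraries lay above all others and the day 3 libraries below all others. Its log2 fold change at day 5 over day 3 was 4.07 ± 0.31 (adjusted p = 2.94e-08), followed by -1.22 ± 0.23 at day 7 over day 5 (adjusted p = 0.000777). The rise at day 10 over 0 h was small (0.84 ± 0.30, adjusted p = 0.0196) and was not called with library totals in place of scaling factors, without 0 h replicate 1 or without day 10 replicate 1 (adjusted p = 0.155, 0.140 and 0.0961).

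The crosslinkers and filament binders fell in every member, but some only after day 3. Flna, the filamin that joins filaments into networks, was the most counted of them, with 6101 and 6146 CPM at 0 h, 6059 and 6218 CPM at 6 h, and 3870.1 and 3318 CPM at day 3. The level was 1335 and 1447 CPM at day 5, 687 and 831 CPM at day 7, and 379.7 and 414.5 CPM at day 10 (log2 fold change at day 10 over 0 h -3.95 ± 0.11, adjusted p = 3.89e-15). Its day 10 libraries lay below the day 7 libraries, a further fall of -0.93 ± 0.10 (adjusted p = 3.55e-06). Filip1l, a filamin-interacting protein, had 4.84 and 4.82 CPM at day 10 and 136 and 132 CPM at 0 h (-4.79 ± 0.15, adjusted p = 6.08e-14). Actn1 and Actn4 encode the non-muscle alpha-actinins, which bundle filaments. Actn1 stood at 61.0 and 62.1 CPM at day 10 and 676 and 644 CPM at 0 h (-3.42 ± 0.11, adjusted p = 1.82e-14). Actn4 stood at 114 and 113 CPM at day 10 and 435 and 407 CPM at 0 h (-1.89 ± 0.11, adjusted p = 1.15e-10).

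Flnc, the filamin of striated muscle, and Lima1, a filament stabiliser also called EPLIN, showed no called fall by day 3. Flnc had 259 and 356 CPM at day 3 and 258.5 and 288 CPM at 0 h, overlapping groups whose difference did not pass (log2 fold change 0.17 ± 0.13, adjusted p = 0.256). It then stood at 73.8 and 86.5 CPM at day 5 (-1.94 ± 0.13 against day 3, adjusted p = 7.38e-08). Lima1 had 528 and 385 CPM at day 3 and 348 and 387 CPM at 0 h, and its difference lay at the threshold (0.31 ± 0.13, adjusted p = 0.051), with a call as higher under several other settings. At day 10 it had 137 and 139.5 CPM (-1.41 ± 0.14 against 0 h, adjusted p = 7.78e-07), the smallest fall among the 34 genes called lower.

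All 4 focal adhesion genes fell, with a median log2 fold change of -1.81 at day 10 over 0 h, and Zyx lay furthest from the others. Zyx, which encodes zyxin, a LIM protein that moves to stressed filaments, had 366 and 372 CPM at 0 h, 351 and 393 CPM at 6 h, and 111 and 168 CPM at day 3. The level was 35.2 and 41.4 CPM at day 5, 22.2 and 21.2 CPM at day 7, and 22.2 and 18.8 CPM at day 10. It was 18.1-fold lower at day 10 than at 0 h (log2 fold change -4.17 ± 0.20, adjusted p = 1.62e-08). Vcl, the gene of vinculin, which ties talin to actin, had 660.5 and 624 CPM at day 10 and 2415 and 2496 CPM at 0 h (-1.93 ± 0.13, adjusted p = 3.86e-09). Tln1, the gene of talin, which binds integrins, had 299 and 289 CPM at day 10 and 941 and 943 CPM at 0 h (-1.68 ± 0.076, adjusted p = 1.55e-12). Neither Vcl nor Tln1 differed by the test between day 5 and day 3 (log2 fold changes -0.13 ± 0.12 and 0.03 ± 0.074, adjusted p = 0.390 and 0.746). Vasp, which helps filaments to elongate, had 50.9 and 46.8 CPM at day 10 and 156 and 140.5 CPM at 0 h (-1.60 ± 0.099, adjusted p = 1.44e-10).

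The LIM domain genes, whose proteins dock on filaments and on the Z-disc of muscle, fell in all 5 cases by day 10. Fhl2, a coactivator and known SRF target, had 125 and 134 CPM at 0 h, 127 and 147 CPM at 6 h, and 62.7 and 54.9 CPM at day 3. The level was 8.83 and 11.7 CPM at day 5, 2.42 and 4.14 CPM at day 7, and 1.25 and 1.38 CPM at day 10. No later time overlapped an earlier one from day 3 on, and the level was 97.5-fold lower at day 10 than at 0 h (log2 fold change -6.61 ± 0.21, adjusted p = 6.58e-13). The day 10 libraries held 14 and 18 counts of Fhl2. Pdlim7 had 16 and 13.7 CPM at day 10 and 142 and 131 CPM at 0 h (-3.20 ± 0.12, adjusted p = 1.04e-13).

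Pdlim5 and Fhl1 joined Cald1, Flnc and Lima1 as the 5 genes not called at day 3 against 0 h. Flnc was called higher without day 3 replicate 1 (0.38, adjusted p = 0.00231) and Pdlim5 without day 3 replicate 2 (0.18, adjusted p = 0.0462). Pdlim5 had 721 and 589.5 CPM at day 3 and 632 and 636 CPM at 0 h (log2 fold change 0.05 ± 0.085, adjusted p = 0.632), and Fhl1 302 and 334 CPM at day 3 and 284 and 340.1 CPM at 0 h (0.03 ± 0.12, adjusted p = 0.856). All 5 were lower at day 5 than at day 3, Pdlim5 by -1.51 ± 0.087 (adjusted p = 1.52e-10) and Fhl1 by -1.68 ± 0.13 (adjusted p = 1.05e-07). The call of Lima1 at day 5 was lost without day 3 replicate 1 (-0.12, adjusted p = 0.314), day 5 replicate 1 (adjusted p = 0.133) or day 5 replicate 2 (adjusted p = 0.0592). These 5 were singled out after their values were seen. Csrp1 had 111 and 104 CPM at day 10 and 504 and 556 CPM at 0 h (-2.30 ± 0.20, adjusted p = 5.43e-06), and its call as lower at day 3 was lost without 0 h replicate 1, 0 h replicate 2 or day 3 replicate 2 (adjusted p = 0.0514, 0.113 and 0.0598), with upper-quartile factors (adjusted p = 0.0569) and with library totals (adjusted p = 0.0563).

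The monomer binding and turnover genes fell by at least 2-fold by day 3, and no later interval changed any of them by as much. Pfn1, the gene of profilin, which feeds monomers to growing filaments, had 803 and 748 CPM at 0 h, 796 and 758 CPM at 6 h, and 277 and 264 CPM at day 3. The level was 355 and 319 CPM at day 5, 277 and 278 CPM at day 7, and 246.5 and 216 CPM at day 10. Both day 5 libraries lay above the day 3 libraries (log2 fold change 0.32 ± 0.080, adjusted p = 0.00251). Actn4 rose in the same interval (0.34 ± 0.10, adjusted p = 0.00936), and neither rise was called with library totals in place of scaling factors (0.18 and 0.20, adjusted p = 0.0525 and 0.122). The call of Pfn1 was also lost without day 5 replicate 1 (adjusted p = 0.0542), and that of Actn4 without day 3 replicate 1 or day 5 replicate 2 (adjusted p = 0.0734 and 0.206). Cfl1, the gene of the filament-severing cofilin, had 261 and 253 CPM at day 10 and 1144 and 1144 CPM at 0 h (-2.15 ± 0.070, adjusted p = 2.02e-14). Tmsb4x, the gene of thymosin beta 4, which sequesters monomers, had 454 and 457 CPM at 0 h, 124 and 109 CPM at day 7, and 142 and 156 CPM at day 10. It was lower at day 10 than at 0 h (-1.62 ± 0.15, adjusted p = 9.9e-07), and the difference between day 10 and day 7 did not pass (0.35 ± 0.15, adjusted p = 0.101).

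Compared per kilobase of gene length, the order of the 38 genes changed along with the fall. At 0 h the highest means were those of Actb (7511 ± 492), Cfl1 (966), Pfn1 (891.5), Acta2 (788) and Flna (731.5 CPM per kilobase). At day 10 they were those of Actb (796), Pfn1 (266), Tmsb4x (222), Cfl1 (217), Tpm4 (141) and Myl6 (133 CPM per kilobase), and Acta2 stood at 13.2 CPM per kilobase. Mylk, with 15.8 CPM per kilobase at day 10 and 0.337 at 0 h, thus ended at about the level of Acta2.

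Other genes of the actin pathway are described by counts and medians at day 10 against 0 h, where all genes tested had a median of 0.06, 39.9% called lower and 42.8% called higher. Of 22 contractility regulators tested, 15 were lower and 3 higher, with a median log2 fold change of -0.42. The deepest fall was that of Diaph3, a formin, with 1.43 and 2.22 CPM at day 10 and 113 and 109 CPM at 0 h (-5.90 ± 0.14, adjusted p = 6.6e-16), and its day 3 libraries already stood at 2.98 and 3.29 CPM. Pak1, a kinase downstream of Rac and Cdc42, fell by 2.84 on the log2 scale and Arhgdia by 1.34. Rhob rose, with 314 and 275 CPM at day 10 and 72.1 and 76.7 CPM at 0 h (1.98 ± 0.099, adjusted p = 1.25e-11). The most counted regulators, Cdc42 and Ppp1cb, had log2 fold changes of -0.29 ± 0.076 (adjusted p = 0.00235) and 0.01 ± 0.070 (adjusted p = 0.851).

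Of 17 Arp2/3 and WAVE genes, which nucleate branched networks, 9 were lower and 4 higher, with a median of -0.32. Actr3, an actin-related core subunit of Arp2/3, had a log2 fold change of -1.83 ± 0.074 (adjusted p = 3.47e-13), and Cyfip1 and Wasf1, of the WAVE complex, of -1.67 ± 0.070 and -1.20 ± 0.41 (adjusted p = 5.94e-13 and 0.0122). Brk1, a small WAVE subunit, was higher (0.50 ± 0.068, adjusted p = 3.43e-06), and the abundant Cttn did not pass the test (-0.15 ± 0.081, adjusted p = 0.103). Of 16 filament turnover and capping genes, 9 were lower and 2 higher, with a median of -0.44. Dstn, the cofilin relative destrin, had 161 and 168 CPM at day 10 and 909.8 and 925 CPM at 0 h (-2.48 ± 0.12, adjusted p = 8.29e-11), and Wdr1 and Cap1, which help cofilin to take filaments apart, were lower by -2.04 ± 0.10 (adjusted p = 9.41e-12) and -1.71 ± 0.072 (adjusted p = 6.16e-13). Lmod1, a smooth muscle leiomodin, rose, with 13.9 and 24.2 CPM at 0 h, 153 and 105 CPM at day 3, and 106 and 107.5 CPM at day 10 (2.47 ± 0.33 at day 10 over 0 h, adjusted p = 0.000253), as did Add3 (0.99 ± 0.078, adjusted p = 3.03e-09).

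Of 28 other focal adhesion and stress fibre genes, 23 were lower and 2 higher, with a median of -1.43, the lowest of the 5 pathway lists. Tes had 13.3 and 14.0 CPM at day 10 and 289.9 and 269 CPM at 0 h (-4.35 ± 0.11, adjusted p = 7.79e-16), and Msn, the gene of moesin, which links filaments to the membrane, averaged 95.8 ± 5.98 CPM at day 10 and 1055.5 ± 41.1 CPM at 0 h (SD, n = 2 each; -3.46 ± 0.10, adjusted p = 7.75e-15). The risers were Ldb3, a Z-disc protein known from striated muscle, with 236 and 223 CPM at day 10 and 18.4 and 23.3 CPM at 0 h (3.46 ± 0.16, adjusted p = 1.4e-09), and Tns1, the gene of tensin 1 (1.77 ± 0.14, adjusted p = 2.23e-07). Ldb3 had 165 and 166 CPM at day 5, against 28.6 and 19.5 CPM at day 3.

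Muscle genes, listed as a check on other cell types that use SRF, were few and mostly scarce. The 16 in the table summed to 50.5 to 64.6 CPM at day 10 and 188 to 192 CPM at 0 h. Of 9 tested, 4 were lower and 2 higher at day 10, against 39.9% and 42.8% of all genes tested. Tnnt2, cardiac troponin T, stood out by its level, with 119 and 112.5 CPM at 0 h, 161 and 167 CPM at 6 h, and 15.4 and 15.6 CPM at day 3. The level was 0.684 and 1.01 CPM at day 5, 0.692 and 0.617 CPM at day 7, and 0.179 and 0.0766 CPM at day 10 (-9.77 ± 0.19 at day 10 over 0 h, adjusted p = 7.16e-17). The day 10 values lie near 0, so the size of this fold change has a wide counting error. Smtn, the gene of smoothelin, a protein known from smooth muscle, made up most of the day 10 sum, with a mean of 50.1 ± 9.93 CPM at day 10 and 63.9 ± 2.88 CPM at 0 h (SD, n = 2 each; -0.35 ± 0.12, adjusted p = 0.0127). The smooth muscle myosin gene Myh11 averaged 0.166 ± 0.0184 CPM at day 10 and 0.0309 ± 0.0437 CPM at 0 h (SD, n = 2 each), at or near 0 at both ends.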

How the data were processed

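Whole-transcriptome RNA was sequenced as 2 libraries at each of 6 time points. The gene table holds raw counts per gene, deposited by the authors with a gene length per gene. Per the labels' protocols, 200 ng of RNA entered a stranded total RNA kit, while the same text speaks of poly-A+ RNA. The submitters' processing notes name STAR as a tool and mm10 as the genome build. No version of STAR, counting program or gene annotation is given in the sources used here.

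Counts were fitted with edgeR 4.0.16 (R 4.3.3): TMM factors, filterByExpr (12740 genes kept, 4350 removed), 1 mean for each time point, 12 libraries in the same model, and robust quasi-likelihood tests with 6 residual degrees of freedom (biological coefficient of variation 0.0737). A call needs a Benjamini-Hochberg adjusted p below 0.05 over all genes tested. The p-values measure the spread between 2 libraries per time point, pooled over times. SE is the log2 fold change divided by the square root of F. CPM per kilobase used the deposited gene length, in place of the RefSeq exon length that had been planned. The script was tested on simulated counts. Of the identifiers, 17045 of 17090 matched a RefSeq symbol, so names were available for nearly every gene. Promoter windows come from RefSeq (GRCm38.p6), and shared 50- and 100-base words from GENCODE transcripts. Genes were named by rule: any of the 39, any gene of the cell type lists, and from each other list up to 3 called genes with the largest rises, 3 with the largest falls and the 2 most counted. A gene that this rule names is not reported here. The time courses of Cald1, Flnc, Lima1, Pdlim5 and Fhl1 were grouped after their values were seen. The members and lists were chosen with earlier results of these data known. Alternatives were other scaling factors, other filters, DESeq2 1.42.0, the replicate number as a block, the compared libraries alone and leaving out each library. Symbols carry the uncertainty of overlapping genes where strand use in counting is not stated.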

Additional observations from a re-analysis of the deposited data

How the results depend on the processing

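The 34 lower genes at day 10 against 0 h numbered 34 or 35 under every alternative, and no called fold change of a gene changed its sign in any; 3019 gene values kept their call and 101 lost it. Counts that moved by more than 1.5 times were those of higher genes and, without single libraries, that of lower genes at day 10 against day 7. Genes higher at 6 h numbered 1 with the compared libraries alone. Genes higher at day 3 numbered 2 (reported: 1) with median-of-ratios or upper-quartile factors, library totals, no filter, a filter at a mean of 1 CPM or DESeq2, Lima1 being the addition. Genes higher at day 5 against day 3 numbered 2 (reported: 5) with library totals, which shifted the fold changes of all genes by a median of -0.14 there, of -0.20 and -0.12 in the later intervals and of -0.35 at day 10 against 0 h. Upper-quartile factors shifted them by a median of 0.11 at day 3. Genes higher at day 10 against day 7 numbered 2 with no filter or DESeq2 and 3 with the compared libraries alone. Leaving out single libraries gave 1 to 3 genes higher and 28 to 32 lower at day 3 against 0 h, 4 to 5 and 26 to 30 at day 5 against day 3, 1 and 27 to 34 at day 7 against day 5, 1 to 3 and 7 to 18 at day 10 against day 7, 2 to 3 and 34 at day 10 against 0 h, 0 and 0 at 6 h, and 37 to 38 in the joint test. The causes were not tested.

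Values near 0 that were not called turned their sign: at day 3 against 0 h, leaving out single libraries gave -0.00 to 0.12 for Cald1, -0.11 to 0.18 for Pdlim5, -0.08 to 0.38 for Flnc and -0.10 to 0.16 for Fhl1; with library totals, Mylk at day 7 against day 5 (-0.04) and Actb at day 10 against day 7 (-0.05); and Myl6 at day 10 against 0 h (0.00) without day 10 replicate 2. Without division by length, the mean share of Acta2 among the actins was 12.3, 12.9, 18.9, 8.98 and 2.15% at 0 h, 6 h, day 3, day 5 and day 10, against 9.45, 9.92, 14.8, 6.85 and 1.61% per kilobase. With up to 1 mismatch, a CArG box was found in 52.8% of the member genes and 23.8% of all genes.

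The replicate numbers share only a number: same-numbered deviations correlated between -0.091 and 0.193 over 15 pairs of times. With the replicate number as a block, 31 genes were lower at day 3 against 0 h, 29 at day 5 against day 3, 33 at day 7 against day 5, 17 at day 10 against day 7 and 34 at day 10 against 0 h, and 1, 5, 1, 1 and 3 were higher in those comparisons; the calls of Csrp1 at day 3 against 0 h and of Actg1 at day 5 against day 3 were lost (adjusted p = 0.0556 and 0.0546). Depth limits genes at low counts, among them Myl9, Fhl2, Cnn1 and Tnnt2. It also limits Actg2 (20 and 13 counts at day 10) and Tpm2 (21 and 14 counts at day 3). Having 2 libraries a time and no untreated cells limits all results.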
